A study of Mus musculus with 17 samples.

Results

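The elastic fibre genes are 10 genes of elastin, fibrillins, fibulins and microfibril-associated proteins (*Eln*, *Fbn1*, *Fbn2*, *Fbln1*, *Fbln2*, *Fbln5*, *Mfap2*, *Mfap4*, *Mfap5* and *Emilin1*), taken by symbol from the 31053 genes of a count table, and all 10 were found. The table holds bulk RNA-seq of cardiac fibroblasts (CFs) from hearts of C57BL/6 Collagen1a1-GFP+ reporter mice of 8 to 10 weeks, in which myocardial infarction (MI) had been induced by tying off the left anterior descending coronary artery. Every library came from infarcted hearts, with 3 libraries each at 1, 2, 4 and 6 days post-infarction (dpi), 4 at 3 dpi and 1 at 5 dpi, and no uninjured heart was analysed here. Cells are described as sorted GFP+/CD31-/CD45-, with GFP driven by the *Col1a1* promoter, so that a GFP+ sort would miss fibroblasts without GFP. The sorting methods also name staining with an anti-feeder antibody, with or in place of GFP. The study places the transition of activated CFs into reparative CFs between 3 and 5 dpi, so that levels were compared between successive days with 3 or more libraries (2 against 1, 3 against 2, 4 against 3 and 6 against 4 dpi), between the first and last day, and between this window and the days before it.

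Elastic fibres let a tissue stretch and recoil. A core of cross-linked elastin is laid onto a scaffold of microfibrils, which are built from fibrillins and carry small associated glycoproteins, while fibulins and emilins bring elastin, microfibrils and cross-linking enzymes together. Microfibrils also hold latent TGF-β in the matrix, and in the heart fibroblasts and smooth muscle cells are sources of elastin.

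Total counts ran from 8021815 to 22029938 per library. Counts come from the 3′ ends of poly-A transcripts, and levels are given as log2 CPM (CPM being a gene's count relative to the normalized library size), a scale on which a difference of 1 is a 2-fold difference within a gene. Levels are not ranked between genes. All 10 genes had at least 10 counts in all 17 libraries, and the lowest count of any of them was 97, for *Fbn2*. The 8 fibroblast markers together reached 12404 to 37994 CPM, *Pecam1* (CD31) at most 241 counts and *Ptprc* (CD45) at most 37. The leukocyte markers, *Ptprc* among them, summed to 53.1 to 191 CPM at 3 dpi and 12.5 to 59.9 CPM on the other days. The endothelial markers summed to at most 32.4 CPM. Some libraries stood apart from those of their day. Replicate 2 of 3 dpi was the highest of its day for 9 of the 10 genes, replicate 1 of 1 dpi the lowest for 8 and replicate 3 of 6 dpi the lowest for 7. Over all genes, the chi-square per degree of freedom between libraries was 175 to 230 for pairs with replicate 2 of 3 dpi and 105 to 133 for pairs with replicate 3 of 4 dpi, where the other pairs of these days were at 23.0 to 38.6. At 6 dpi it was 95.2 and 121 for the pairs with replicate 3, and 52.1 for the other pair. Calls of the 10 genes that rest on a single library are given with and without it. The labels of 3 dpi follow a naming of their own, which cannot be told apart from the day in any comparison with 3 dpi. The sex-linked *Xist* was at 126 to 223 CPM at 4 dpi, 85.7 to 252 CPM at 6 dpi and 3.08 to 211 CPM at 1 dpi, but at 1.81 to 2.73 CPM at 2 dpi, no more than 0.161 CPM at 3 dpi and 0 at 5 dpi. Y-linked genes together were at 42.8 to 71.7 CPM at 2, 3 and 5 dpi, 10.6 to 60.0 CPM at 1 dpi and at most 0.768 CPM at 4 and 6 dpi. A difference of 4 and 6 dpi from 2, 3 and 5 dpi cannot be told apart from this pattern. The methods speak of biological replicates, but the labels do not name the animals, and p-values measure the spread between these libraries.

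Elastic fibre genes called between 1 and 6 dpi were all higher at 6 dpi. Of the 10 genes, 7 rose between these days and none fell, in a quasi-likelihood test of edgeR at an adjusted p under 0.05 (Benjamini-Hochberg, 14030 genes). Of all genes tested, 12.1% passed, 6.91% higher and 5.21% lower. The 7 were *Eln*, *Mfap4*, *Mfap2*, *Fbn2*, *Fbln5*, *Fbln1* and *Mfap5*. Without replicate 1 of 1 dpi, or without replicate 1 of 6 dpi, 4 of the 10 were called (*Eln*, *Mfap4*, *Mfap2* and *Fbn2*). In these fits 796 and 805 of all genes were called, in place of 1700. Levels at 6 and 1 dpi did not overlap for 9 of the 10, as for 32.5% of all genes, and *Fbln2* was the exception. The median log2 fold change of the 10 genes was 1.29, against 0.03 for all genes tested. Over the whole time course, 6 of the 10 differed among the days (15% of all genes): *Eln*, *Mfap4*, *Mfap2*, *Fbn2*, *Mfap5* and *Fbln1*. Of these, *Fbln1* was lost without replicate 2 of 6 dpi (edgeR adjusted p = 0.065), and *Mfap5* without the 3 dpi libraries (adjusted p = 0.067). Cell type markers moved between the same days. Of the smooth muscle and pericyte markers 8 of 12 rose (*Des*, *Rgs5*, *Cnn1*, *Tagln*, *Cspg4*, *Mylk*, *Notch3* and *Acta2*). *Myh11*, *Smtn*, *Kcnj8* and *Abcc9* were not called. The sum of the 12 was 421 to 579 CPM at 1 dpi and 1261 to 1457 CPM at 6 dpi. All 5 tested cardiomyocyte markers rose, from 17.1 to 34.8 CPM to 74.5 to 175 CPM. Adventitial fibroblast markers summed to 1284 to 2705 CPM at 1 dpi and 2961 to 4128 CPM at 6 dpi, and 1 of 7 rose (*Cd248*). Of the 8 fibroblast markers 3 rose and 2 fell. Their part in these results was not tested. In bulk libraries, more cells that express a gene and more RNA per cell cannot be told apart. Nor do such libraries show whether marker RNA came from fibroblasts or from other cells.

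**Figure D1:**
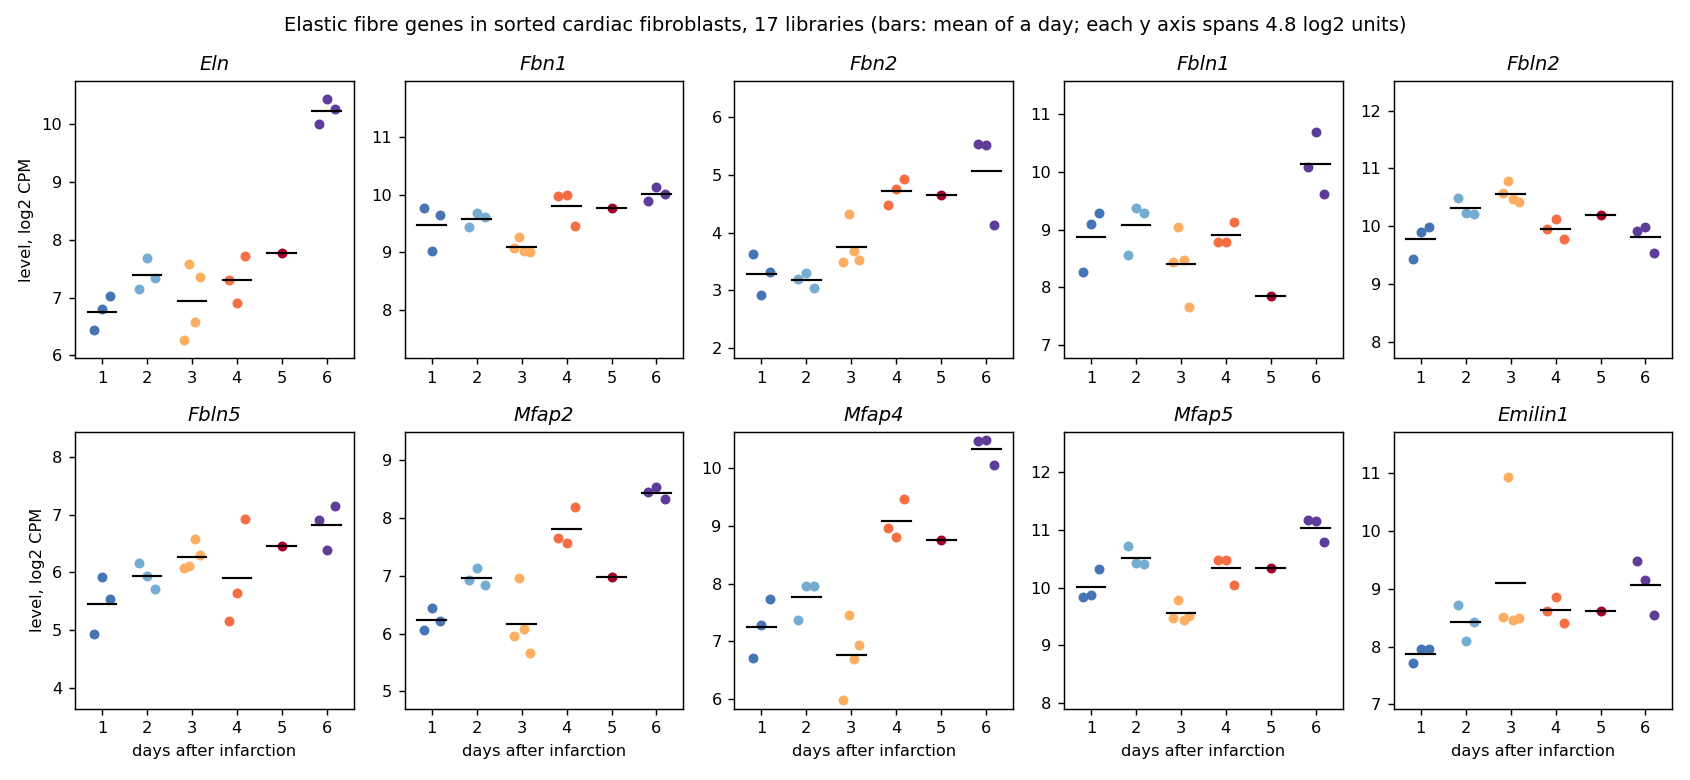
Level of each elastic fibre gene (y axis, log2 CPM) in each of the 17 libraries (points) by days after infarction (x axis), with a bar at the mean of each day. Eln is high at 6 dpi only, Mfap4 and Mfap2 are higher at 4 dpi than at 1 to 3 dpi and highest at 6 dpi, and Fbln2 is highest at 3 dpi.

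*Eln* (ENSMUSG00000029675, chromosome 5, 134702593 to 134747323, minus strand, GRCm38) encodes tropoelastin, the monomer of the elastic core. Its level was 6.44, 6.80 and 7.02 log2 CPM in the libraries of 1 dpi, 7.14, 7.68 and 7.34 at 2 dpi, and 6.27, 7.58, 6.58 and 7.35 at 3 dpi. It was 7.30, 6.90 and 7.73 log2 CPM at 4 dpi, 7.78 in the single 5 dpi library, and 10.01, 10.43 and 10.27 at 6 dpi. All libraries up to 5 dpi therefore lay within 6.27 to 7.78, and each 6 dpi library lay above them. On the linear scale this was 109 ± 21.6 CPM (SD, n = 3) at 1 dpi, 163 ± 46.3 CPM (SD, n = 3) at 4 dpi and 1218 ± 176 CPM (SD, n = 3) at 6 dpi. The difference of 6 from 4 dpi was 2.90 ± 0.34 (log2 fold change ± standard error, 7.49-fold; edgeR adjusted p = 7.5e-04), and that of 6 from 1 dpi was 3.48 ± 0.35 (11.1-fold, adjusted p = 6.1e-06). None of the steps of *Eln* from 1 to 2, 2 to 3 and 3 to 4 dpi passed the test. In the order of the day means (1, 3, 4, 2, 5 and 6 dpi) the libraries of neighbouring days overlapped except between 2 and 5 dpi and between 5 and 6 dpi.

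*Eln* was also the only elastic fibre gene called between 4 and 6 dpi, where 0.513% of all genes were called (0.235% higher, 0.278% lower), and levels did not overlap for 5 of the 10 genes (21.6% of all genes). The number of all genes called in this comparison was 72 and moved with single libraries, to 3 without replicate 2 of 4 dpi, 751 without replicate 2 of 3 dpi and 1402 without replicate 3 of 6 dpi, and *Eln* was called in each of these fits. Smooth muscle is another source of elastin. The 12 smooth muscle and pericyte markers summed to 1261 to 1457 CPM at 6 dpi and 1639 to 1967 CPM at 4 dpi, a sum made up mostly of *Acta2* (log2 fold change -0.96) and *Tagln* (-0.42). The difference was above 0 for 8 of the 12, among them *Mylk* (0.99), *Myh11* (0.74) and *Smtn* (0.63). None of the 12 passed the edgeR test in this comparison (3 had an unadjusted p under 0.05), and *Myh11*, the smooth muscle myosin, was at 15.0 to 31.4 CPM at 6 dpi and 3.25 to 29.8 CPM at 4 dpi. Adventitial fibroblast markers summed to 2961 to 4128 CPM at 6 dpi and 1690 to 2306 CPM at 4 dpi, with none of 7 called and 3 with an unadjusted p under 0.05. Epicardial markers summed to 84.0 to 591 CPM and 41.3 to 76.5 CPM, with none of 6 called and 3 with an unadjusted p under 0.05. Cardiomyocyte markers summed to 74.5 to 175 CPM and 39.9 to 67.5 CPM, with none of 5 called, 2 with an unadjusted p under 0.05 and *Ryr2* at 15 counts or fewer. The part of these markers in the *Eln* result was not tested. *Eln* shares exon sequence with an antisense gene, *Gm30003*, which had 7 counts in all libraries together.

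Fibrillins form the microfibril itself. *Fbn1* (ENSMUSG00000027204, chromosome 2, 125300594 to 125507993, minus strand) encodes fibrillin-1, the chief fibrillin of adult tissue, and *Fbn2* (ENSMUSG00000024598, chromosome 18, 58008623 to 58210487, minus strand) encodes fibrillin-2, which is best known from developing tissue. The level of *Fbn1* was 9.77, 9.02 and 9.64 log2 CPM at 1 dpi, 9.45, 9.68 and 9.61 at 2 dpi, 9.08, 9.26, 9.02 and 9.0 at 3 dpi, 9.97, 10.00 and 9.45 at 4 dpi, 9.77 at 5 dpi and 9.90, 10.14 and 10.01 at 6 dpi. All day means of *Fbn1* lay within 0.93 of each other, and the 3 dpi libraries were below those of 2 and of 4 dpi. It did not pass the time course test (edgeR adjusted p = 0.085), but did so without replicate 2 of 3 dpi (adjusted p = 0.041) or replicate 3 of 4 dpi (adjusted p = 0.044). Its 6 dpi level differed from that of 1 dpi by 0.51 ± 0.25 (edgeR adjusted p = 0.2). Exons of *Fbn1* share up to 2442 bases with *Gm9913* on the opposite strand, which had 687 counts in all libraries.

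*Fbn2* differed over the time course (edgeR adjusted p = 8.8e-04). Its level was 3.63, 2.92 and 3.32 log2 CPM at 1 dpi, 3.20, 3.29 and 3.04 at 2 dpi, and 3.50, 4.33, 3.68 and 3.53 at 3 dpi. It was 4.47, 4.76 and 4.93 log2 CPM at 4 dpi, 4.65 at 5 dpi, and 5.54, 5.52 and 4.13 at 6 dpi. The 4 and 5 dpi libraries were all above those of 1 to 3 dpi, and replicate 3 of 6 dpi (4.13) lay within the range of 3 dpi. *Fbn2* rose by 1.90 ± 0.34 between 1 and 6 dpi (3.73-fold, edgeR adjusted p = 0.0015). It was the only elastic fibre gene called by edgeR between the 3 to 5 dpi window and 1 and 2 dpi, with a higher level in the window (log2 fold change 1.16 ± 0.24, 2.24-fold, edgeR adjusted p = 0.0041), a comparison in which 7.48% of all genes were called, 5.25% higher. *Mfap4* differed by 0.69 ± 0.24 and missed the threshold (edgeR adjusted p = 0.089), but passed it in DESeq2 (adjusted p = 0.037). Without the 3 dpi libraries *Mfap4* (1.35, edgeR adjusted p = 0.0014) and *Mfap2* (0.76, adjusted p = 0.018) were also higher in the window. In that fit 819 of all genes were called, in place of 1050. Of the smooth muscle and pericyte markers 8 of 12 rose in the window, the same 8 as between 1 and 6 dpi. The sums went from 421 to 621 CPM to 974 to 2705 CPM. Of the other lists, 1 of 7 leukocyte markers rose (*Lyz2*), 2 of 7 adventitial fibroblast markers fell (*Ly6c1* and *Pi16*), and of the 8 fibroblast markers 3 rose and 3 fell. The part of these markers in the *Fbn2* result was not tested. Replicate 1 of 1 dpi (3.63) lay above the lowest 3 dpi libraries, so that the 2 sets of libraries overlapped for *Fbn2*, as they did for all 10 genes, where 2.31% of all genes had no overlap. *Fbn1* in the same comparison differed by 0.02 ± 0.18 (edgeR adjusted p = 0.97).

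The microfibril-associated glycoproteins MAGP-1 (*Mfap2*) and MAGP-2 (*Mfap5*) bind fibrillins, and the fibrinogen-related protein MFAP4 (*Mfap4*) binds elastin and fibrillin fibres as well as collagens. *Mfap4* (ENSMUSG00000042436, chromosome 11, 61485431 to 61488900, plus strand) was at 6.72, 7.28 and 7.73 log2 CPM at 1 dpi, 7.36, 7.97 and 7.97 at 2 dpi, and 5.98, 7.45, 6.69 and 6.94 at 3 dpi. It was at 8.96, 8.80 and 9.47 log2 CPM at 4 dpi, 8.75 at 5 dpi, and 10.47, 10.48 and 10.04 at 6 dpi. The order of the day means was 3, 1, 2, 5, 4 and 6 dpi, and from 2 dpi upwards in this order no library of a day overlapped those of the next. *Mfap4* rose by 2.25 ± 0.32 from 3 to 4 dpi (4.75-fold, edgeR adjusted p = 7.6e-04) and by 3.05 ± 0.36 from 1 to 6 dpi (8.26-fold, adjusted p = 3.0e-05). Its difference of 1.24 ± 0.34 between 4 and 6 dpi missed the threshold (edgeR adjusted p = 0.082), although the libraries did not overlap, and passed it without replicate 2 of 3 dpi or replicate 3 of 6 dpi (adjusted p = 0.027 for each). Exons of *Mfap4* and of *Mapk7* on the opposite strand share up to 89 bases, and *Mapk7* had 9750 counts in all libraries against 105054 of *Mfap4*. The counting is not stated to use strand, so that reads in the shared bases cannot be told apart.

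*Mfap2* (ENSMUSG00000060572, chromosome 4, 141010418 to 141015984, plus strand) followed a like course. Its level was 6.06, 6.45 and 6.22 log2 CPM at 1 dpi, 6.93, 7.13 and 6.84 at 2 dpi, and 5.96, 6.95, 6.07 and 5.66 at 3 dpi. It was 7.66, 7.57 and 8.19 log2 CPM at 4 dpi, 6.97 at 5 dpi, and 8.45, 8.53 and 8.33 at 6 dpi. Each library of 4 and 6 dpi was above each library of the other days, and the 5 dpi library lay within the range of 2 dpi. These are also the days of high and low *Xist* outside 1 dpi, and the part of the sex-linked pattern in the *Mfap2* levels was not tested. *Mfap2* rose by 1.59 ± 0.27 from 3 to 4 dpi (3.00-fold, edgeR adjusted p = 0.0038) and by 2.19 ± 0.30 from 1 to 6 dpi (4.56-fold, adjusted p = 1.3e-04). When only the 3 and 4 dpi libraries entered the fit, the call of *Mfap2* between these days was lost (edgeR adjusted p = 0.056).

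*Mfap5* (ENSMUSG00000030116, chromosome 6, 122505845 to 122529290, plus strand) was at 9.84, 9.87 and 10.32 log2 CPM at 1 dpi, 10.72, 10.42 and 10.41 at 2 dpi, and 9.48, 9.79, 9.44 and 9.51 at 3 dpi. It was at 10.48, 10.48 and 10.05 log2 CPM at 4 dpi, 10.33 at 5 dpi, and 11.16, 11.15 and 10.79 at 6 dpi. The 3 dpi libraries were below those of every other day. *Mfap5* fell by 0.96 ± 0.23 on the log2 scale from 2 to 3 dpi (edgeR adjusted p = 0.031), the only elastic fibre gene called in that comparison, where 2.94% of all genes were called (1.82% higher, 1.12% lower) and levels did not overlap for 3 of the 10 (18.6% of all genes). That call was lost with any one of the 3 libraries of 2 dpi, or of replicates 1, 3 and 4 of 3 dpi, left out (edgeR adjusted p up to 0.1), and held without replicate 2 of 3 dpi (adjusted p = 0.011), where *Mfap2* (-1.07, adjusted p = 0.0076) and *Mfap4* (-1.20, adjusted p = 0.023) fell as well. It was also lost with a replicate block (edgeR adjusted p = 0.1), with only the libraries of 2 and 3 dpi in the fit (adjusted p = 0.062) and with every gene of at least 1 count tested (adjusted p = 0.059). Of the adventitial fibroblast markers 2 of 7 fell between these days (*Ly6c1* and *Pi16*), from sums of 2041 to 3460.5 CPM to sums of 957 to 1884 CPM, while 4 of 12 smooth muscle and pericyte markers and 2 of 7 leukocyte markers rose. Of the 8 fibroblast markers 1 fell (*Lum*). The part of these markers in the *Mfap5* result was not tested. From 1 to 6 dpi *Mfap5* rose by 1.02 ± 0.25 (2.02-fold, edgeR adjusted p = 0.014), a call lost without replicate 1 or 2 of 1 dpi or replicate 1 or 2 of 6 dpi (adjusted p up to 0.065).

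**Figure D2:**
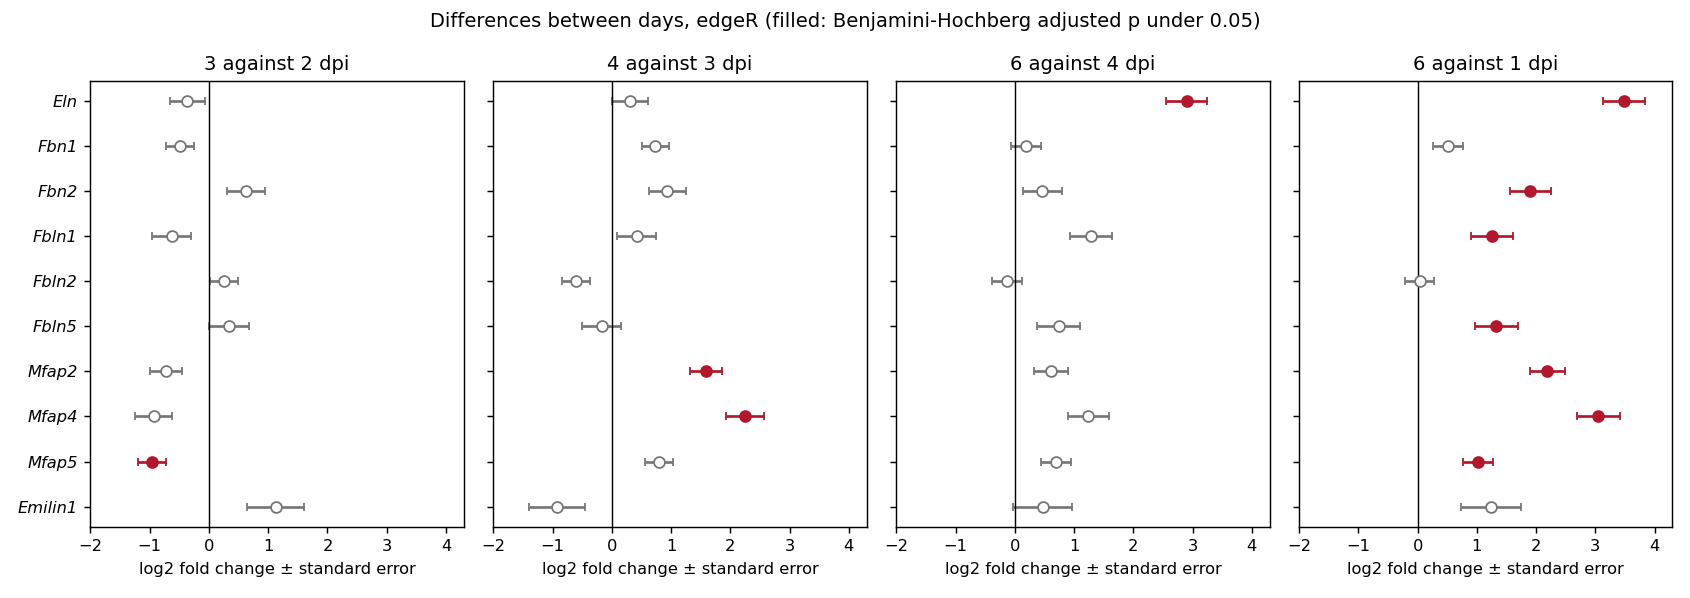
Log2 fold change with its standard error (x axis) of the 10 elastic fibre genes (rows) in 4 comparisons of days (panels), with filled points where the edgeR adjusted p was under 0.05. Filled points are Mfap5 to the left of 0 in 3 against 2 dpi, Mfap2 and Mfap4 in 4 against 3 dpi, Eln alone in 6 against 4 dpi and 7 genes in 6 against 1 dpi.

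*Mfap4* and *Mfap2* were the 2 elastic fibre genes called between 3 and 4 dpi, where 2.71% of all genes were called (1.63% higher, 1.08% lower), and levels did not overlap for 6 of the 10 (16.7% of all genes). Without replicate 2 of 3 dpi 722 of all genes were called in place of 380, and 5 of the 10, with *Fbn1* (edgeR adjusted p = 0.048), *Fbn2* (0.034) and *Mfap5* (0.027) also higher at 4 dpi, and *Fbn2* was called without replicate 3 of 6 dpi too (0.041). Of the cardiomyocyte markers, 3 of 5 tested (*Tnnt2*, *Actc1* and *Myl2*) rose between the same days, from a sum of 7.89 to 11.3 CPM at 3 dpi to one of 39.9 to 67.5 CPM at 4 dpi. Among the leukocyte markers *Cd14* fell, and the sum was 53.1 to 191 CPM at 3 dpi and 21.8 to 31.97 CPM at 4 dpi. One of 7 adventitial fibroblast markers rose (*Ly6c1*), with sums of 957 to 1884 CPM and 1690 to 2306 CPM, and 1 of 8 fibroblast markers rose (*Lum*, log2 fold change 2.07, edgeR adjusted p = 0.0058). None of the 12 smooth muscle and pericyte markers was called, with 4 at an unadjusted p under 0.05. The part of these markers in the *Mfap4* and *Mfap2* results was not tested.

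Fibulins bridge elastin, microfibrils and basement membranes. Fibulin-5 (*Fbln5*) binds tropoelastin, integrins and the cross-linking enzyme LOXL1 and is needed for elastic fibre assembly, whereas fibulin-1 (*Fbln1*) and fibulin-2 (*Fbln2*) are found in elastic fibres and in basement membranes. *Fbln1* (ENSMUSG00000006369, chromosome 15, 85205949 to 85286535, plus strand) was at 8.27, 9.09 and 9.28 log2 CPM at 1 dpi, 8.57, 9.38 and 9.29 at 2 dpi, and 8.45, 9.05, 8.48 and 7.66 at 3 dpi. It was at 8.79, 8.79 and 9.12 log2 CPM at 4 dpi, 7.85 at 5 dpi, and 10.09, 10.69 and 9.61 at 6 dpi. The 6 dpi libraries were above all others, and the libraries of the other days overlapped along the order of their means. *Fbln1* rose by 1.26 ± 0.36 from 1 to 6 dpi (2.39-fold, edgeR adjusted p = 0.029), and the difference of 1.29 ± 0.36 between 4 and 6 dpi missed the threshold (adjusted p = 0.085) but passed it without replicate 2 of 3 dpi (adjusted p = 0.03) or replicate 3 of 6 dpi (adjusted p = 0.019). The first of these calls was lost without replicate 1 or 2 of 1 dpi or replicate 1 or 2 of 6 dpi (edgeR adjusted p up to 0.16).

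*Fbln5* (ENSMUSG00000021186, chromosome 12, 101746565 to 101819055, minus strand) was at 4.93, 5.91 and 5.54 log2 CPM at 1 dpi, 6.15, 5.94 and 5.72 at 2 dpi, and 6.08, 6.11, 6.58 and 6.31 at 3 dpi. It was at 5.15, 5.65 and 6.93 log2 CPM at 4 dpi, 6.45 at 5 dpi, and 6.90, 6.39 and 7.14 at 6 dpi. The libraries of 4 dpi spread widely (SD 0.92), and no neighbouring days in the order of the means were free of overlap. Between 1 and 6 dpi *Fbln5* rose by 1.33 ± 0.36 (2.51-fold, edgeR adjusted p = 0.022). Left out in turn, replicate 1 or 3 of 1 dpi or replicate 1 of 6 dpi ended this call (edgeR adjusted p up to 0.12), and so did unscaled library sizes, both for *Fbln5* (adjusted p = 0.082) and for *Fbln1* (adjusted p = 0.053). Without replicate 3 of 4 dpi, *Fbln5* was called between 4 and 6 dpi (1.45, edgeR adjusted p = 0.035) and over the time course (adjusted p = 0.011).

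*Fbln2* (ENSMUSG00000064080, chromosome 6, 91212455 to 91272540, plus strand) had its highest day mean at 3 dpi. Its level was 9.44, 9.90 and 9.98 log2 CPM at 1 dpi, 10.49, 10.23 and 10.22 at 2 dpi, and 10.57, 10.79, 10.47 and 10.42 at 3 dpi. It was 9.95, 10.13 and 9.78 log2 CPM at 4 dpi, 10.20 at 5 dpi, and 9.92, 9.99 and 9.53 at 6 dpi. The libraries of 2 and 3 dpi lay above those of 1, 4 and 6 dpi. None of the steps passed the edgeR test: 4 dpi differed from 3 dpi by -0.61 ± 0.24 (edgeR adjusted p = 0.17) and 6 dpi from 1 dpi by 0.03 ± 0.25 (adjusted p = 0.95), a sign that changed with unscaled library sizes. In DESeq2 *Fbln2* was lower at 4 than at 3 dpi (-0.63, adjusted p = 0.033). Its time course missed the threshold in edgeR (adjusted p = 0.089) and passed it in DESeq2 (adjusted p = 0.0018) and with unscaled library sizes (adjusted p = 0.035).

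Emilin-1 (*Emilin1*, ENSMUSG00000029163, chromosome 5, 30913402 to 30921277, plus strand) sits between elastin and microfibrils and binds fibulin-5. Its level was 7.71, 7.95 and 7.97 log2 CPM at 1 dpi, 8.73, 8.10 and 8.43 at 2 dpi, and 8.52, 10.94, 8.46 and 8.50 at 3 dpi. It was 8.62, 8.86 and 8.42 log2 CPM at 4 dpi, 8.62 at 5 dpi, and 9.49, 9.16 and 8.55 at 6 dpi. Each library after 1 dpi was above each 1 dpi library, and replicate 2 of 3 dpi exceeded every other library. The difference of 6 from 1 dpi was 1.23 ± 0.51 and missed the threshold (edgeR adjusted p = 0.12), but passed it without replicate 2 of 3 dpi (adjusted p = 0.0018) and with only the libraries of 1 and 6 dpi in the fit (adjusted p = 0.014). Over the time course *Emilin1* was not called (edgeR adjusted p = 0.13), and was called without replicate 2 of 3 dpi (adjusted p = 0.017). The difference of 3 from 2 dpi went from 1.13 with this library to 0.05 without it, and that of 4 from 3 dpi from -0.93 to 0.15.

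The sequence before the start site is given for the members that rose between 1 and 6 dpi and were matched in the RefSeq promoter table (GRCm38.p6). Over the 17 libraries *Fbln1* and *Mfap2* had r = 0.73, *Fbln5* and *Mfap2* r = 0.45 and *Fbln1* and *Fbln5* r = 0.27. Of the 10 genes, 6 were matched: *Fbn1*, *Fbln1*, *Fbln2*, *Fbln5*, *Mfap2* and *Emilin1*. The 250 bases before the most upstream RefSeq start are printed 5′ to 3′ on the strand of the gene, at chr4:141010174-141010423 (plus), chr12:101819120-101819369 (minus) and chr15:85205699-85205948 (plus), with matches to the searched motifs in capitals.
Mfap2: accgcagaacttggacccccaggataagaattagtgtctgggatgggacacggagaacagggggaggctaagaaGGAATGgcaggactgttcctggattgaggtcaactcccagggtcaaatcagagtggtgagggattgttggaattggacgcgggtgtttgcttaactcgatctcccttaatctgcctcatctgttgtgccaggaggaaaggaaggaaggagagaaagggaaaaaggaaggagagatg
Fbln5: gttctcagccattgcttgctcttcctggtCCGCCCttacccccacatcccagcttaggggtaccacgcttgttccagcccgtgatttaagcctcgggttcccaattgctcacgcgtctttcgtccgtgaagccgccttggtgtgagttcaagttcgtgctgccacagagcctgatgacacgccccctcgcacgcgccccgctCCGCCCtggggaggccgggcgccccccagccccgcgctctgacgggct
Fbln1: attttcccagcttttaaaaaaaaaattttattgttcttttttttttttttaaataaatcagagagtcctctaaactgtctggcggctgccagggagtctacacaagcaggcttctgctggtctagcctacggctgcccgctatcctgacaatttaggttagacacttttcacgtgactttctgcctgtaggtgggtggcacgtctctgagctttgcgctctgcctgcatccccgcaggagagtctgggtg

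The 5 motifs named here were searched on both strands of these 250 bases, and no 2 matches overlapped. The capitals in *Mfap2* are GGAATG, a core bound by TEAD factors, from 176 to 171 bases before the start, and 12.6% of all 32851 promoter entries hold it. In *Fbln5* they are CCGCCC, the reverse complement of the GC box GGGCGG, from 221 to 216 and from 48 to 43 bases before the start, and 32.7% of all entries hold a GC box. *Fbln1* held none of the motifs. TATAAA (12.4% of all entries), the AP-1 motif TGANTCA (6.75%) and the CArG box of smooth muscle genes (1.47%) matched in none of the 6 genes, while *Fbn1* and *Fbln2*, which were not called, each held 1 GC box and *Emilin1* held no match. GC content of the 250 bases was 51.2% in *Mfap2*, 65.2% in *Fbln5* and 46.4% in *Fbln1*. A match of letters is not a binding site, and no match says only that the letters are not in this window.

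Between successive days the 10 genes differed in sign as well as size, and the single 5 dpi library was not compared by itself. At 2 against 1 dpi none was called by edgeR (0.178% of all genes were, 0.157% higher and 0.0214% lower), 2 had an unadjusted p under 0.05 (*Mfap2* and *Fbln2*), DESeq2 also called 0, and levels did not overlap for 5 of the 10 (15.1% of all genes). The median log2 fold change of the 10 was 0.49 in this comparison, against 0.01 for all genes tested. It was -0.43 at 3 against 2 dpi, against 0.04 for all genes, and 0.58 at 4 against 3 dpi, with -0.03 for all genes. At 6 against 4 dpi it was 0.65, against -0.02, with 9 of the 10 above 0. The lowest day mean was that of 3 dpi for *Fbn1*, *Mfap2*, *Mfap4* and *Mfap5*, and the highest day mean was that of 3 dpi for *Fbln2*. For *Emilin1* it was so with replicate 2 of 3 dpi alone, since the other 3 libraries of that day (8.46 to 8.52) lay below the 4 dpi mean of 8.63 log2 CPM. Comparisons that share a day share its libraries, so that a low 3 dpi level enters both of its neighbours.

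**Figure D3:**
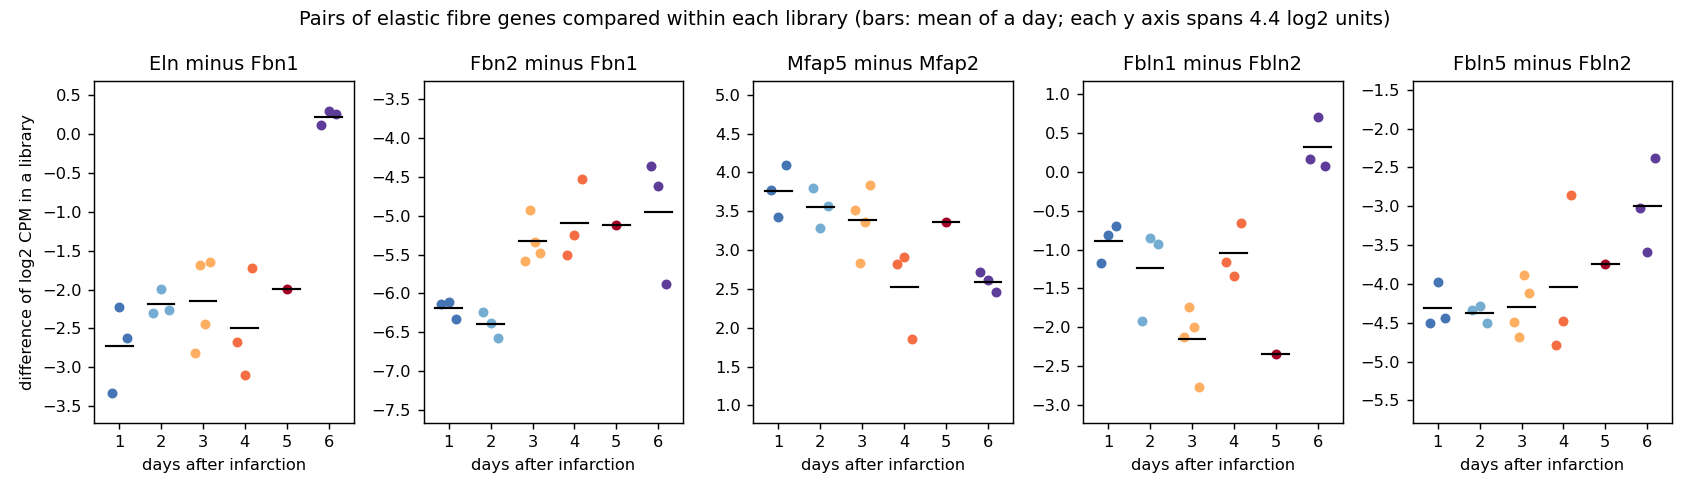
Difference in log2 CPM between the genes of each of 5 pairs within a library (y axis) for the 17 libraries (points) by days after infarction (x axis), with a bar at the mean of each day. Fbn2 minus Fbn1 is higher in each library of 3 to 5 dpi than in each of 1 and 2 dpi, and Eln minus Fbn1 is 0.12 to 0.30 at 6 dpi and -3.33 to -1.65 in all earlier libraries.

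Ratios within a library do not depend on the scaling between libraries. For 5 pairs of related genes, the log2 difference was compared between the 6 libraries of 1 and 2 dpi and the 8 of 3 to 5 dpi with an exact two-sided permutation test over 3003 splits, adjusted over the 5 pairs. The splits took each library as independent, although libraries of the same day share that day, so that the p-values do not measure spread between days. The size of such a difference does not rank the genes, and its change between days is what was tested. The fibrillins shifted: *Fbn2* minus *Fbn1* was -6.57 to -6.11 at 1 and 2 dpi and -5.58 to -4.52 at 3 to 5 dpi, without overlap. The mean shift was 1.08 (exact permutation p = 3.3e-04, the smallest this test can give, adjusted p = 0.0017), from -6.29 ± 0.17 (SD, n = 6) to -5.21 ± 0.35 (SD, n = 8). At 6 dpi the same difference was -5.88 to -4.36.

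The other 4 pairs did not pass with all libraries in the test. *Mfap5* minus *Mfap2* moved by -0.59 (exact permutation p = 0.041, adjusted p = 0.087) and was lower at 4 dpi (1.86 to 2.91) and 6 dpi (2.46 to 2.71) than at 1 dpi (3.43 to 4.10). *Fbln1* minus *Fbln2* moved by -0.70 (exact permutation p = 0.052, adjusted p = 0.087). The first of these passed without replicate 4 of 3 dpi (adjusted p = 0.034) and the second without replicate 3 of 4 dpi (adjusted p = 0.038). The difference of *Fbln1* and *Fbln2* was -2.77 to -1.74 at 3 dpi and 0.08 to 0.71 at 6 dpi, the highest of all days. *Eln* minus *Fbn1* moved by 0.20 and *Fbln5* minus *Fbln2* by 0.21 (exact permutation, adjusted p = 0.5 for each). For *Eln* minus *Fbn1* the difference came after the window, with 0.12 to 0.30 at 6 dpi and -3.33 to -1.65 in all earlier libraries. Within the window it was -2.81 to -1.65 at 3 dpi, -3.10 to -1.72 at 4 dpi and -1.99 at 5 dpi. These 6 dpi values were not part of the test.

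**Figure D4:**
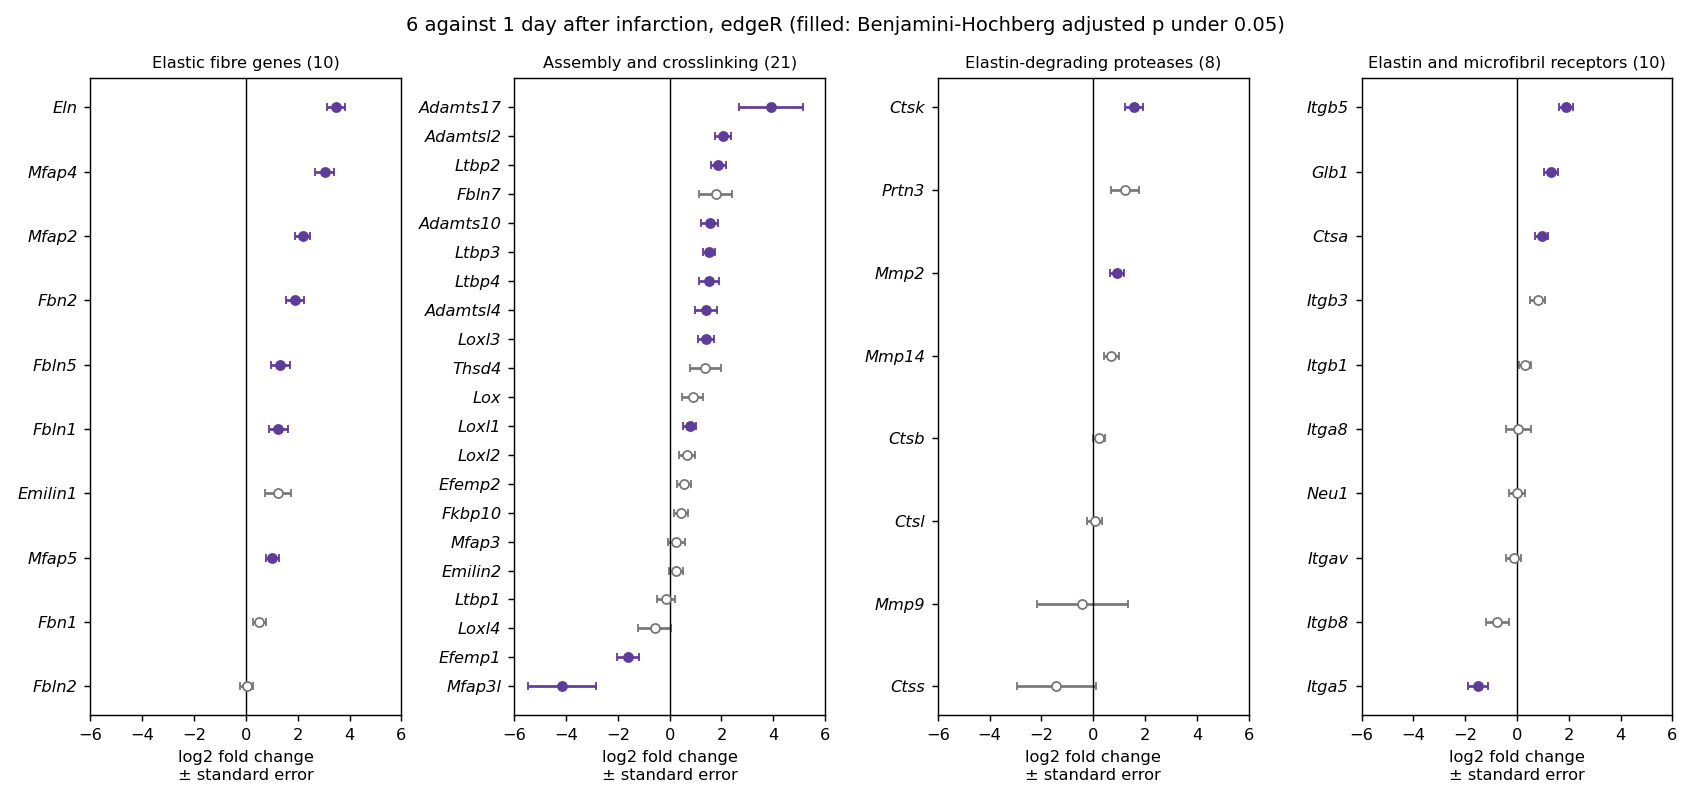
Log2 fold change of 6 against 1 dpi with its standard error (x axis) for the elastic fibre genes and for the tested genes of 3 related lists (panels, number of genes in brackets), with filled points where the edgeR adjusted p was under 0.05. Of the assembly and crosslinking genes, 9 of 21 rose and 2 fell, and of the elastic fibre genes 7 of 10 rose.

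Elastic fibres also need proteins that assemble and cross-link them. Of 21 genes of assembly and crosslinking, all tested, 9 rose and 2 fell (*Efemp1* and *Mfap3l*, the latter with 189 counts in all libraries) between 1 and 6 dpi. The list's median was 0.89 on the log2 scale, against 0.03 for all genes, of which 6.91% rose and 5.21% fell. Over the time course 10 of the 21 differed, as did 15% of all genes. The latent TGF-β binding proteins *Ltbp2*, *Ltbp3* and *Ltbp4*, which bind microfibrils, rose by 1.88 ± 0.27 (edgeR adjusted p = 2.2e-04), 1.53 ± 0.23 (2.7e-04) and 1.52 ± 0.37 (0.012). *Ltbp1* of the same family differed by -0.13 ± 0.36 (edgeR adjusted p = 0.84), and *Ltbp1* and *Ltbp3* were named after their values were seen. *Adamtsl2*, which binds fibrillin-1, rose by 2.06 ± 0.30 from 1 to 6 dpi (edgeR adjusted p = 2.6e-04). It was the 1 of these 21 genes called between 4 and 6 dpi (1.55 ± 0.30, edgeR adjusted p = 0.037). In that comparison 0.513% of all genes were called. The elastin cross-linking enzyme *Loxl1* rose by 0.78 ± 0.24 from 1 to 6 dpi (edgeR adjusted p = 0.043). Lysyl oxidase (*Lox*) differed by 0.89 ± 0.40 and missed the threshold (edgeR adjusted p = 0.15), with its highest mean, 8.85 ± 0.22 log2 CPM (SD, n = 3), at 4 dpi and a wide spread at 6 dpi (7.99 ± 1.08, SD, n = 3). Fibulin-4 (*Efemp2*), which brings lysyl oxidase to elastin, differed by 0.55 ± 0.28 (edgeR adjusted p = 0.2).

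The lysyl oxidase-like enzyme *Loxl2* was at 5.95, 6.50, 8.02, 7.42, 8.46 and 6.67 log2 CPM as day means from 1 to 6 dpi. It was the 1 of 21 assembly genes called at 3 against 2 dpi, where 2.94% of all genes were called. In the window against 1 and 2 dpi, *Loxl2*, *Ltbp2* and *Loxl3* rose, 3 of 21 genes where 7.48% of all genes were called. *Ltbp4* had day means of 10.29, 10.42, 9.83, 10.25, 9.26 and 11.77 log2 CPM from 1 to 6 dpi, with its highest day mean at 6 dpi, as for 8 of the 10 elastic fibre genes.

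Of 11 proteases that degrade elastin, *Mmp7*, *Mmp12* and *Elane* did not pass the filter, with 0, 32 and 8 counts in all libraries. Of the 8 tested, *Ctsk* and *Mmp2* rose between 1 and 6 dpi, by 1.58 ± 0.34 (edgeR adjusted p = 0.005) and 0.93 ± 0.27 (adjusted p = 0.03), where 12.1% of all genes were called, 6.91% higher and 5.21% lower. None was called between 4 and 6 dpi by edgeR (1 had an unadjusted p under 0.05), where 0.513% of all genes were called. *Ctss*, a macrophage cathepsin, passed the time course test (edgeR adjusted p = 0.049) with 1493 counts in all libraries and an SD of 3.53 log2 units at 3 dpi. Of 10 receptor genes for elastin and microfibrils, 3 rose (*Itgb5*, *Glb1* and *Ctsa*) and *Itga5* fell between 1 and 6 dpi, to be read against the same 6.91% and 5.21%. *Itgb5*, whose integrin binds fibrillin-1, fibulin-5 and other matrix ligands, rose by 1.90 ± 0.26 from 1 to 6 dpi (edgeR adjusted p = 1.3e-04) and by 1.35 ± 0.26 from 4 to 6 dpi (adjusted p = 0.034). The calls of *Itgb5* and *Adamtsl2* between 4 and 6 dpi were not checked with libraries left out. *Glb1*, of which a splice form is the elastin receptor, rose by 1.31 ± 0.26 from 1 to 6 dpi (edgeR adjusted p = 0.0034). Counts per gene do not tell this form from the others. *Neu1* of the same list differed by -0.004 ± 0.32 between these days and was not called. *Itgb3* differed over the time course (edgeR adjusted p = 0.048) with day means of 3.40 to 4.503 log2 CPM. *Itgav*, the partner of both integrin chains, was called at 4 against 3 dpi (1.12 ± 0.27, edgeR adjusted p = 0.032).

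Among the members, *Mfap2* and *Mfap4* followed each other most closely over the 17 libraries (Pearson r = 0.95, Spearman rho = 0.94), and *Mfap4* and *Eln* had r = 0.86. *Fbln2* had negative r with 7 of the other 9, from -0.56 with *Fbn1* to -0.22 with *Fbn2*. These correlations describe libraries that share days and handling, and carry no test. Of 8919 genes with a mean of at least 100 counts, those most like *Eln* were *Scrn1* (r = 0.91), *Itgb5* (0.90) and *Tmem203* (0.89). Those most like *Mfap4* were *Hspb2* (0.97), *Arap1* (0.96) and *Gng8* (0.95), and for *Mfap2* they were *Ltbp3* (0.95), *Mfap4* (0.95) and *Lsp1* (0.93). *Fbln1* was most like *Fmnl1* (0.94), *Tppp3* (0.93) and *Ltbp4* (0.93). *Fbn2* was most like *Tbxa2r* (0.93), *Mdk* (0.93) and *Gucy1b1* (0.92), and *Emilin1* like *Nagk* (0.96), *Srpx2* (0.95) and *Cyb5r3* (0.93), values in which replicate 2 of 3 dpi is included. For *Fbn1* they were *Nedd8* (0.89), *Lamtor2* (0.89) and *Hsbp1* (0.88), and for *Mfap5* *Higd2a* (0.93), *Rabac1* (0.92) and *Gstm2* (0.91). *Fbln5* had *Efhd1* (0.89), *Tmem158* (0.81) and *2010111I01Rik* (0.80), and *Fbln2* had *Tmem38b*, *Retsat* and *Sertad2*, all at 0.84.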

How the data were processed

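The values are raw counts per gene in the 17 libraries; per the labels and the methods, the authors demultiplexed with bcl2fastq (1.2.4), aligned to mm10 with STAR, counted with featureCounts on an Ensembl annotation of GRCm38 and deposited the counts unnormalized, with no collapsing of molecular identifiers named, so that counts include PCR copies. The quasi-likelihood test of edgeR (4.0.16, R 4.3.3) used TMM normalization, day (6 levels) as the one factor across the 17 libraries, and the Benjamini-Hochberg method at 0.05. It covered 14030 genes, each reaching 10 counts in 3 or more libraries. Tables were handled in Python (3.11.15) with pandas (2.3.3). The standard error is the log2 fold change divided by the square root of F. Log2 CPM used a prior count of 2. Alternatives were DESeq2 (1.42.0), its size factors, unscaled library sizes, no filter, a replicate block, only the days compared, no 3 dpi libraries and each library left out in turn. The members and the related lists were chosen with earlier results of these data known. All members are named, with the 3 genes of each list with the smallest time course p, *Lox*, *Loxl1*, *Efemp2* and *Ltbp4*, and the 3 genes most like each member by Pearson r. Other genes were named after their values were seen. Positions are from GENCODE vM21 (GRCm38), promoters from RefSeq (GRCm38.p6). Gene symbols were matched for 30934 of 31053 genes. Replicate numbers were taken from the titles, and the 5 dpi library is replicate 3 there and 1 in its description. Figures used matplotlib (3.10.9).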

Additional observations from a re-analysis of the deposited data

Results flagged for a closer look

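*Emilin1* in replicate 2 of 3 dpi was at 10.94 log2 CPM, far above the other 3 libraries of that day (8.46 to 8.52). The distance to the next library made up 0.974 of that day's range, above Dixon's 95% critical value for 4 samples. Only 3 dpi, the day with 4 libraries, was tested in this way. It was the one of 10 genes so marked, and chance marks about 1 in 20 groups. The same library was the highest of its day for 9 of the 10 genes, and the cause was not tested.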

How the results depend on the processing

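DESeq2's size factors in edgeR changed no count of called members. Unscaled library sizes gave 7 over the time course and 5 at 6 against 1 dpi, with 1833 and 1556 of all genes. The reported fit called 6 and 7 members there, and 2099 and 1700 of all genes. DESeq2 in place of edgeR called 10 members over the time course, 5 at 4 against 3 dpi, 4 at 6 against 4 dpi and 2 in the window against 1 and 2 dpi, where edgeR called 6, 2, 1 and 1. Over all genes it called 3757, 857, 759 and 1561, where edgeR called 2099, 380, 72 and 1050. With every gene of at least 1 count tested, 8 members were called over the time course, 2 at 3 against 2 dpi (*Mfap4* and *Emilin1*, not *Mfap5*), 3 at 4 against 3 dpi, 3 at 6 against 4 dpi and 3 in the window, with 3729, 980, 866, 882 and 1486 of all genes. Only the libraries of the days compared gave 0 at 3 against 2 dpi (*Mfap5*, adjusted p = 0.062) and 1 at 4 against 3 dpi. Over all genes these fits called 252 and 125, in place of 412 and 380. At 6 against 1 dpi this setting gave 8 members, with 1536 of all genes. Without the 3 dpi libraries the window gave 3 members, with 819 of all genes in place of 1050, and the pairs gave 2. In the same setting *Mfap5* missed the time course threshold (edgeR adjusted p = 0.067). Leaving out each library in turn gave 5 to 8 members over the time course (*Fbln1* was lost without replicate 2 of 6 dpi, adjusted p = 0.065), 0 to 3 at 3 against 2 dpi, 2 to 5 at 4 against 3 dpi, 1 to 3 at 6 against 4 dpi, 4 to 8 at 6 against 1 dpi and 1 to 2 pairs. The counts over all genes moved too, from 1307 to 3466 over the time course, 46 to 734, 126 to 722, 3 to 1402 and 763 to 2577. The highest member counts came without replicate 2 of 3 dpi, and also without replicate 3 of 4 dpi (8 over the time course) and replicate 3 of 6 dpi (3 at 6 against 4 dpi), while 2 pairs passed without replicate 4 of 3 dpi or replicate 3 of 4 dpi. The lowest came without replicate 1 of 1 dpi or of 6 dpi (4 at 6 against 1 dpi) and without replicate 2 of 6 dpi (5 over the time course). No library changed the count at 2 against 1 dpi (0) or in the window (1). *Eln*, *Mfap2*, *Mfap4* and *Fbn2* remained called at 6 against 1 dpi in each of these fits, and *Eln* at 6 against 4 dpi. The cause of these changes was not tested.

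Signs changed only for differences that missed the threshold in the reported fit, although *Emilin1* at 4 against 3 dpi was called with every gene of at least 1 count (-0.97, adjusted p = 0.042). They were *Fbln2* at 6 against 1 dpi (-0.16) and *Fbn1* in the window (-0.021) with unscaled library sizes, and *Fbln2* (-0.0056) and *Mfap5* (0.039) in the window without the 3 dpi libraries. With single libraries left out, *Fbn1* (-0.13 to 0.21), *Fbn2* (-0.30 to 0.050) and *Fbln1* (-0.071 to 0.39) changed sign at 2 against 1 dpi, *Fbln5* (-0.88 to 0.14) and *Emilin1* (-1.16 to 0.15) at 4 against 3 dpi, *Fbln2* (-0.13 to 0.16) at 6 against 1 dpi and *Fbn1* (-0.095 to 0.074) in the window.

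The deviations of same-numbered libraries of different days had a mean r of 0.011 over 30 pairs (-0.108 to 0.20). For libraries of different numbers the mean r was -0.005 over 72 pairs (-0.259 to 0.148). Of 15 libraries, 8 were closest to one of their own number. These values do not settle whether the numbers pair samples. With the replicate block, the members called at 3 against 2 dpi went from 1 to 0, where all genes called went from 412 to 174. The other member counts did not change. Calls over all genes fell there too, from 2099 to 1494 over the time course, 380 to 243 at 4 against 3 dpi and 72 to 28 at 6 against 4 dpi. They went from 1700 to 1509 at 6 against 1 dpi and from 1050 to 885 in the window.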
